A study of Homo sapiens with 22 samples.

Results

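The 10 genes described here belong to the programme by which a B cell becomes an antibody-secreting plasma cell, and they were followed in human B-cell lymphoma lines treated with 2 inhibitors of epigenetic enzymes. They were taken by gene symbol from the array's platform annotation, and every probe set with 1 of these symbols was kept. This gave 15 probe sets of 22215 tested, for 10 of the 11963 genes that could be named. PRDM1, IRF4 and XBP1 are transcriptional regulators (5 probe sets), and SDC1, JCHAIN, TNFRSF17, FKBP11, MZB1, ELL2 and CD27 are surface, secretory and RNA-processing genes that lie downstream of them or mark the same cells (10 probe sets), called effectors below. All symbols of the list were found on the array.

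The study compared treated with untreated cells of 6 lines on 22 Affymetrix HG-U133A arrays, which read each transcript with 1 or more probe sets of short oligonucleotides. Burkitt lymphoma was the source of Daudi, Namalwa and Raji. Diffuse large B-cell lymphoma (DLBCL) was the source of HT, SU-DHL4 and SU-DHL6. The 11 treated arrays came from cells given 5-aza-dC, which blocks DNA methyltransferases, for 6 days, with trichostatin A (TSA, 625 nM), a histone deacetylase inhibitor, added for the last 24 h. The labels give the 5-aza-dC concentration as 5 µM in the sample titles and as 3 µM in the protocol, so the dose is uncertain. The 11 untreated arrays came from the same lines. Each of the 12 groups had 2 arrays, except that HT had 1 array for each treatment. Every line is a single established tumour line, no normal B cells or plasma cells were on the arrays used, and the labels do not state whether duplicates are separate cultures. The p-values for 1 line therefore rest on a spread between duplicates that may be technical.

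In normal B cells the regulators act as a switch. IRF4, a transcription factor, is raised on activation and drives PRDM1, whose protein Blimp-1 shuts down genes of B-cell identity such as PAX5, BCL6 and MYC. XBP1 then enlarges the endoplasmic reticulum (ER) for antibody export, once its messenger RNA has been spliced by the ER stress sensor IRE1. The array reads the amount of XBP1 transcript and does not tell the spliced from the unspliced form. Classical Hodgkin lymphoma, the disease named in the study's title, arises from B cells that have lost most of their B-cell programme.

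Of the 10 members 8 had a promoter in the RefSeq table used here (build GRCh38.p14), each given as 250 bases before and 50 bases after a transcription start, 12 windows in all. TNFRSF17 and ELL2 were not in the table. Because DNA methyltransferases, which 5-aza-dC blocks, act on cytosines in CpG dinucleotides, the windows are shown with every CpG in capitals. They are given for a regulator that rose (IRF4) and a regulator that moved in opposite directions in different lines (XBP1). Windows of 4 effectors that fell (JCHAIN, CD27, MZB1, FKBP11) are given as well. The position of IRF4 is chr6:391502-391801 on the plus strand, and that of XBP1 chr22:28800520-28800819 on the minus strand. JCHAIN is at chr4:70666459-70666758 (minus), CD27 at chr12:6443642-6443941 (plus), MZB1 at chr5:139389864-139390163 (minus) and FKBP11 at chr12:48925443-48925742 (minus).
IRF4: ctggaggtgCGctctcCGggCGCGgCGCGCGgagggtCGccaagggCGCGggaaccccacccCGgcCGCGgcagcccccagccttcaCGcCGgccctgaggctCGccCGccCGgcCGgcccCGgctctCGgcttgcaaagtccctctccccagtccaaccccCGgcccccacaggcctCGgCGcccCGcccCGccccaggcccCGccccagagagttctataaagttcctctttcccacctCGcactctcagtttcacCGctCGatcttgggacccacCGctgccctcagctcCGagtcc
XBP1: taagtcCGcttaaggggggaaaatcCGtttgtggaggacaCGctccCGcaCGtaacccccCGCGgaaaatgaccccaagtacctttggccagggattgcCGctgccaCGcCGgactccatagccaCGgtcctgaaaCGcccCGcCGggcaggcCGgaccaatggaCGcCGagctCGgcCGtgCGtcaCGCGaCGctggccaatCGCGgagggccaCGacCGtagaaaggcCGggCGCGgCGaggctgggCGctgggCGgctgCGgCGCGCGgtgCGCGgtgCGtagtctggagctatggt
JCHAIN: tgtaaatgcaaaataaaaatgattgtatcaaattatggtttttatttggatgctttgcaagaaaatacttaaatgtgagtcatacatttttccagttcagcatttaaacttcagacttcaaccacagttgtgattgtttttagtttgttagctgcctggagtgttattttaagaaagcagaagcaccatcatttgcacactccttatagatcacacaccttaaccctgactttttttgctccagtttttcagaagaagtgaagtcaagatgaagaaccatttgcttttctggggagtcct
CD27: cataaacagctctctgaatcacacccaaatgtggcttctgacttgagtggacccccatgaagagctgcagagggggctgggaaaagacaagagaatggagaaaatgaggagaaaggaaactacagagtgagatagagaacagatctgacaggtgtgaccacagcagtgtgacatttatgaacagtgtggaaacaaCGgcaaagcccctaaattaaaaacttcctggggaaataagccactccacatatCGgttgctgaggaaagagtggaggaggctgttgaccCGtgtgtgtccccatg
MZB1: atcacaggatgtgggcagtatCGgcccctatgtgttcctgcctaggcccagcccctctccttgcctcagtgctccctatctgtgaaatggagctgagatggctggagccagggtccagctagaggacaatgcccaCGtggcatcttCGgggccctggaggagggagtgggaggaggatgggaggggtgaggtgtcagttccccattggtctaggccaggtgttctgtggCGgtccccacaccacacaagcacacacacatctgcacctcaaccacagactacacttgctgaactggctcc
FKBP11: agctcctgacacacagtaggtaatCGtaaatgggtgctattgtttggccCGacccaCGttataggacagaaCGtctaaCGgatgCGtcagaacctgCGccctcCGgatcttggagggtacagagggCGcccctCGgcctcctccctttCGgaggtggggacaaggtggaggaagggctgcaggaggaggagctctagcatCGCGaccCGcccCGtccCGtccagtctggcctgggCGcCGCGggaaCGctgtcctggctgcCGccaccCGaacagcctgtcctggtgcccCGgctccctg

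The windows ranged widely in CpG content. The median over all 35116 promoters of the table was 14 CpGs, with quartiles of 4 and 28. XBP1 held 40 CpGs in the window shown and 23 in its other window, and IRF4 held 32. PRDM1 had 14 and 8 in its 2 windows and SDC1 27 and 23. JCHAIN had 0, CD27 3 and MZB1 4, so 3 of the 5 effectors called lower had windows at or below the lower quartile. Of all promoters 29.6% had 4 CpGs or fewer. FKBP11, also called lower, had 23 and 21 CpGs, and TNFRSF17 had no window in the table. No methylation was measured on these arrays, so the counts describe the sequence only.

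Motifs tied to these regulators were sought on both strands of the same windows. The ER stress response element, CCAAT and CCACG with 9 bases between them, was found in 27 of the 35116 promoters (0.0769%), and of the members in XBP1 alone, beginning 52 bases before the start. CACGTG, a core bound by several basic leucine zipper and helix-loop-helix factors, lay 117 bases before the start of MZB1. In the second FKBP11 window it began at base 20 after the start, and 7.26% of all promoters held it. TATAAA lay 32 bases before the start of IRF4 (11.5% of all promoters). The unfolded protein response element TGACGTGG (0.729%) and a pair of GAAA with 2 bases between them (3.57%), of the kind that IRF and PRDM1 proteins bind, were in none of the 12 windows. None of these motifs overlapped another in a member window.

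Over the 6 lines, 5 of the 7 effector genes and no regulator were called lower after treatment, and IRF4 was called higher. XBP1 averaged -0.38 and was called lower in 2 single lines, Daudi and Namalwa, and higher in 1, SU-DHL4. The test was limma on 12 values, the mean of each line under each treatment, with line as a block and Benjamini-Hochberg adjustment over all 22215 probe sets, called at an adjusted p under 0.05. Of the 15 member probe sets 3 were called higher and 6 lower, and 6 were not called. Of all tested probe sets 32.4% were called, 15.6% higher and 16.7% lower. The 5 regulator probe sets had 2 calls higher and 0 lower with a median change of 0.34 on the log2 scale. The 10 effector probe sets had 1 call higher and 6 lower with a median change of -1.76. The median over all tested probe sets was 0.10. When each array was centred on its own median, that median was 0.01 and the share of higher calls among all calls went from 48.3% to 31.8%, and 1 member probe set was then higher and 6 were lower.

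Array quality differed between samples in ways that touch these values. The interquartile range of the log2 values was 2.31 to 2.59 on untreated arrays and 1.96 to 2.40 on treated arrays, with 2.03 and 1.96 in treated SU-DHL4 and 1.99 on the second treated SU-DHL6 array. On that SU-DHL6 array the 3' control probe set of ACTB exceeded the 5' one by 2.08, against at most 0.07 on untreated arrays. Without SU-DHL4 and that array, 1 member probe set was called higher and 6 lower. The series text says that the treated Burkitt arrays had been published before, and if they were run apart from the untreated ones, batch and treatment cannot be told apart in those 3 lines. In the Burkitt lines alone 1 member probe set was higher and 5 were lower, with the same counts in the DLBCL lines alone. The higher call was not the same, since IRF4 204562_at was called in the Burkitt lines and not in the DLBCL lines. Calls over all probe sets in these subsets are given in the section on processing. B-cell identity was present: all 7 measured B-cell markers of the 8 listed lay above the median probe set in untreated cells, and all 7 were called lower. Their median percent rank by untreated level was 95.2, in the highest decile, where 57% of all probe sets were called lower. The summed level of these 7 markers was 67.8 to 73.3 on untreated and 52.2 to 62.2 on treated arrays. The part of this fall in the member changes was not tested. For the 7 measured plasma cell markers of 8 the sum was 54.6 to 64.8 untreated and 49.3 to 57.1 treated, but 6 of these 7 are members, so the sum is no separate measurement.

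**Figure D1:**
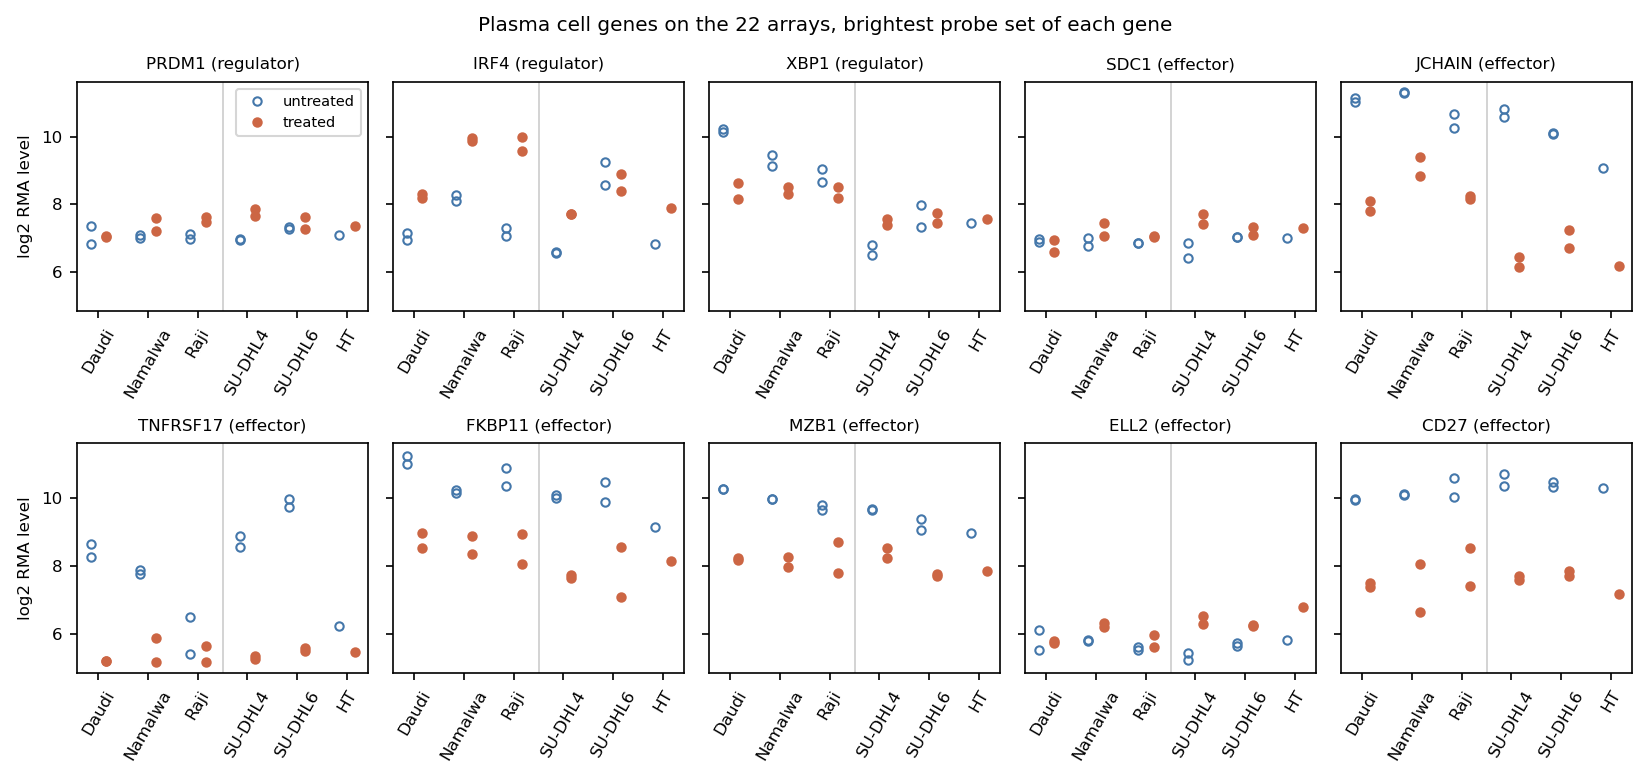
Log2 RMA level (vertical axis) of each member at its brightest probe set in each line (horizontal axis), with open circles for untreated and filled circles for treated arrays. Burkitt lines lie left of the grey line and DLBCL lines right of it. CD27, MZB1 and FKBP11 show all treated arrays below all untreated ones. IRF4 rises in 5 of 6 lines, and the XBP1 values draw together after treatment.

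IRF4 was the regulator with a clear rise, of 1.24 ± 0.94 (SD over 6 lines; limma adjusted p = 0.0229), or 2.37-fold as a geometric mean. Its probe set 204562_at read 6.57 to 9.26 on untreated arrays, with a median of 7.16, and 7.71 to 10.00 on treated arrays, with a median of 8.39. In Raji the untreated arrays had 7.29 and 7.07 and the treated ones 10.00 and 9.56, a rise of 2.60. Namalwa went from 8.11 and 8.26 to 9.97 and 9.89. Daudi went from 6.94 and 7.16 to 8.30 and 8.20, and SU-DHL4 from 6.60 and 6.57 to 7.73 and 7.71. The single HT arrays gave 6.84 and 7.90. In these 5 lines treated arrays lay above untreated ones. SU-DHL6 was the exception, since its untreated arrays (9.26 and 8.57) were the highest of any untreated line and overlapped its treated arrays (8.89 and 8.39).

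The 3 IRF4 probe sets differed in what they showed. On 216986_s_at the rise was 0.42 ± 0.30 (adjusted p = 0.0298; higher in 6 of 6 lines), a call that was lost after centring of each array (0.33, adjusted p = 0.0745), after cyclic loess (0.29, adjusted p = 0.0906) and without the second treated SU-DHL6 array and SU-DHL4 (adjusted p = 0.0855). Leaving out Namalwa, Raji, SU-DHL4 or SU-DHL6 in turn also lost it (0.0529 to 0.081). The third, 216987_at, stayed between 3.98 and 4.17 on all 22 arrays, in the lowest decile of probe sets by level, and gave 0.02. The rise on 204562_at held under both scalings, but its call depended on which lines were included. Without Namalwa the rise was 1.14 (adjusted p = 0.061), without SU-DHL4 1.26 (0.0534) and without Daudi 1.25 (0.0507). In the Burkitt lines alone IRF4 rose by 1.85 (adjusted p = 0.0476), and in the DLBCL lines alone it averaged 0.64 (adjusted p = 0.208).

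The authors' deposited table, which treats the 22 arrays as units, gives IRF4 204562_at a log2 difference of 1.26 with an adjusted p of 0.000183. For PRDM1 the same authors' deposited table gives 0.34 with an adjusted p of 0.00536. The PRDM1 probe set, 217192_s_at, did not pass when lines were the units, at 0.34 ± 0.29 (limma adjusted p = 0.0602). Its untreated arrays ran from 6.83 to 7.35 with a median of 7.09, and its treated arrays from 7.02 to 7.86 with a median of 7.49. The groups overlapped. PRDM1 was called in 1 line, SU-DHL4, where 6.95 and 6.98 became 7.64 and 7.86 (0.79, adjusted p = 0.00234), and 34.3% of all probe sets were called higher in that line. In Daudi its change was -0.05. The decile of all probe sets by untreated level that holds PRDM1 had a median change of 0.19.

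XBP1 averaged -0.38 ± 0.90 over the 6 lines without passing (limma adjusted p = 0.339), and the lines moved towards each other. Daudi had the highest untreated arrays, 10.22 and 10.13, and fell to 8.16 and 8.62 (-1.78, adjusted p = 0.00026 in that line). Namalwa fell from 9.15 and 9.45 to 8.51 and 8.30 (-0.89, adjusted p = 0.0138). SU-DHL4 had the lowest untreated arrays, 6.80 and 6.51, and rose to 7.38 and 7.55 (0.81, adjusted p = 0.00934). Raji averaged -0.50, HT 0.13 and SU-DHL6 -0.06 without a call.

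The order of untreated XBP1 levels was Daudi, Namalwa, Raji, SU-DHL6, HT and SU-DHL4, with line means of 10.17, 9.30, 8.85, 7.65, 7.44 and 6.66. Arrays of neighbouring lines did not overlap in this order except for SU-DHL6 (7.97 and 7.33) and HT (7.44). After treatment the 3 Burkitt lines lay at 8.35 to 8.41 and the 3 DLBCL lines at 7.47 to 7.59. The SD over lines went from 1.32 to 0.46, whereas over all tested probe sets the median SD went from 0.17 to 0.27. Probe sets with an untreated spread as wide as that of XBP1 were not examined separately. Burkitt lines had 2.19 ± 0.42 (SE) more XBP1 than DLBCL lines before treatment, and the change in Burkitt lines was lower by 1.35 ± 0.39 (SE). Both differences use the same untreated values, so they are not separate measurements. Neither difference passed adjustment over all probe sets (untreated unadjusted p = 0.00245 and limma adjusted p = 0.661, change unadjusted p = 0.0114 and limma adjusted p = 0.417).

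JCHAIN, which joins antibody units into polymers of IgM and IgA, had the lowest mean change of the members over the 6 lines. By line it fell furthest only in SU-DHL4, with TNFRSF17 lower in Daudi and SU-DHL6 and CD27 lower in Namalwa, Raji and HT. The untreated arrays read 9.07 to 11.32 with a median of 10.67, and the treated arrays 6.15 to 9.41 with a median of 7.81. Its mean change was -2.99 ± 0.81 (limma adjusted p = 0.000574), a level 7.97-fold lower. In SU-DHL4 JCHAIN went from 10.82 and 10.59 to 6.15 and 6.44. In Namalwa it went from 11.32 and 11.28 to 8.83 and 9.41, so the treated Namalwa arrays overlapped the untreated HT array at 9.07. Within each of the 6 lines treated arrays lay below untreated arrays. JCHAIN was called in the 5 lines with duplicates, and in HT, with 1 array per arm, by a spread borrowed from the other lines. As these are bulk samples, fewer cells with the transcript and less transcript per cell cannot be told apart.

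CD27, a surface receptor of memory B cells and plasma cells that binds CD70, fell by nearly the same amount in each line. Untreated arrays lay between 9.94 and 10.73, with a median of 10.31, and treated arrays between 6.65 and 8.54, with a median of 7.57. The change was -2.72 ± 0.29 (limma adjusted p = 0.000156), from -2.34 in Raji to -3.16 in HT. All 11 treated arrays lay below all 11 untreated ones, which was true of 4 of the 15 member probe sets and of 3.59% of all probe sets. The reverse held for 0 members and 1.86% of all. Of the members 6 were lower in all 6 lines (all probe sets: 15.8%) and 1 was higher in all 6 (22.9%), or 7 with the same sign throughout (38.8%). The duplicate treated arrays of Namalwa (8.04 and 6.65) and of Raji (7.40 and 8.54) differed by more than those of the other lines.

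MZB1 and FKBP11, both of the ER, gave the other 3 of these 4 probe sets. MZB1, a co-chaperone in antibody assembly, read 8.97 to 10.28 untreated and 7.72 to 8.71 treated and fell by 1.55 ± 0.36 (limma adjusted p = 0.000485). FKBP11, a peptidyl-prolyl isomerase of secretory cells, was read by 2 probe sets that moved together. On 219117_s_at the untreated arrays had 9.16 to 11.26 and the treated arrays 7.08 to 8.98, a change of -1.97 ± 0.56 (adjusted p = 0.000714). On 219118_at the values were 8.32 to 10.58 and 6.45 to 7.82, a change of -2.24 ± 0.54 (adjusted p = 0.000466). On the second treated SU-DHL6 array, the one with the high ACTB 3' to 5' value, 219117_s_at had 7.08 against 8.56 on its duplicate, which widened the FKBP11 range.

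TNFRSF17, the receptor BCMA that sustains long-lived plasma cells, had widely spread levels in untreated lines and nearly equal levels in treated ones. Its untreated line means were 9.86 in SU-DHL6, 8.72 in SU-DHL4, 8.45 in Daudi, 7.82 in Namalwa, 6.21 in HT and 5.94 in Raji. Arrays of SU-DHL4 (8.55 and 8.90) and Daudi (8.65 and 8.25) overlapped, and the HT array (6.21) lay between the Raji arrays (5.39 and 6.48). After treatment all 11 arrays read 5.15 to 5.86, and the SD over lines went from 1.52 to 0.14. The change was -2.44 ± 1.53 over the 6 lines (limma adjusted p = 0.0106), called in 4 lines and not in Raji (-0.55, adjusted p = 0.301) or HT (-0.75, adjusted p = 0.413). With only 3 lines the TNFRSF17 call was lost, at an adjusted p of 0.118 in the Burkitt lines and 0.0674 in the DLBCL lines. The treated mean of TNFRSF17 exceeded that of 18% of probe sets, near the bottom of the scale. The lines had the same order by size of fall as by untreated level, from SU-DHL6 down to Raji. Whether the bottom of the scale limited the fall in Raji and HT was not tested.

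SDC1 and ELL2 behaved unlike the other effectors. SDC1 encodes CD138, the surface proteoglycan used to identify plasma cells, and neither of its probe sets was called. On 201287_s_at the untreated arrays had 6.43 to 7.04 and the treated ones 6.59 to 7.70, a mean change of 0.30 ± 0.35 (limma adjusted p = 0.12), with a call in SU-DHL4 (0.91, adjusted p = 0.00115). On 201286_at all 22 arrays lay between 5.18 and 5.76. The authors' deposited table gives SDC1 201287_s_at an adjusted p of 0.0239.

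ELL2 encodes an elongation factor that favours the secreted form of antibody messenger RNA. On 214446_at the untreated arrays read 5.23 to 6.11 and the treated arrays 5.59 to 6.79, a rise of 0.54 ± 0.43 (limma adjusted p = 0.036; higher in 5 of 6 lines). The call was lost after centring (adjusted p = 0.0715), after cyclic loess (0.0696), without Namalwa, SU-DHL4, SU-DHL6 or HT in turn (0.0717 to 0.0901) and without the first untreated Daudi array (0.0842) or the first treated Raji array (0.057). On 214445_at the change was 0.22 ± 0.40 (adjusted p = 0.261) and 0.99 in SU-DHL4 alone. Both ELL2 probe sets lay in the third decile of probe sets by untreated level, where the median change was 0.18.

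**Figure D2:**
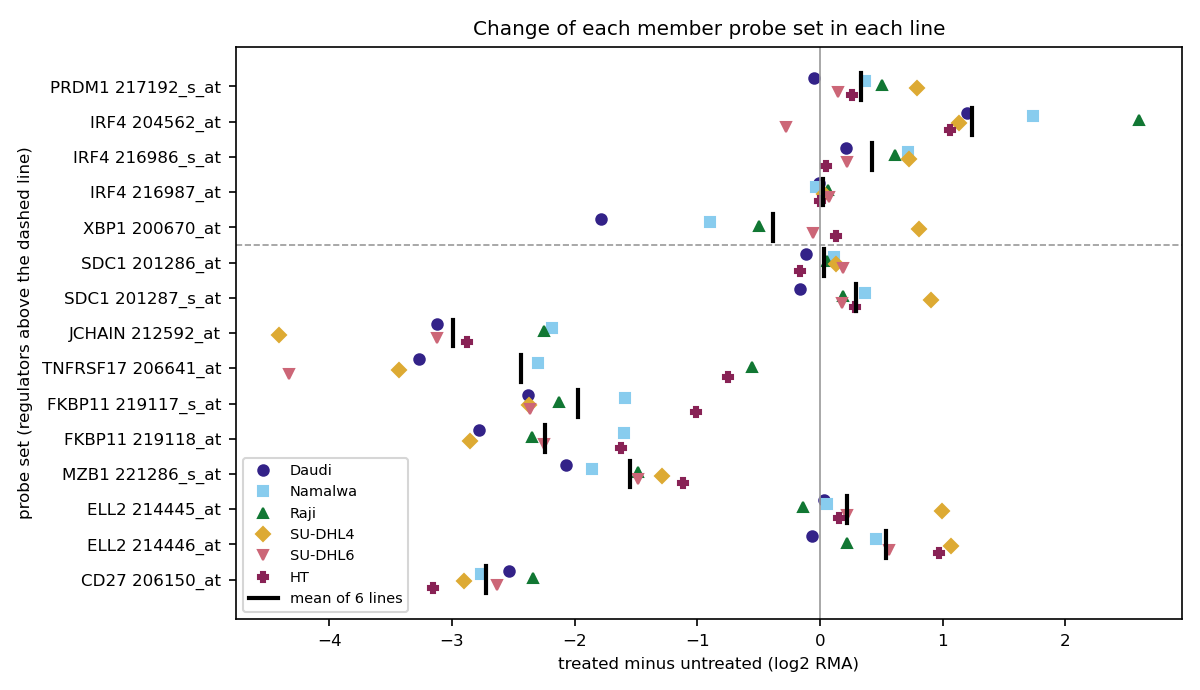
Treated minus untreated log2 RMA value (horizontal axis) of each member probe set (vertical axis), with 1 symbol for each line and a black bar for the mean of the 6 lines. JCHAIN, TNFRSF17, FKBP11, MZB1 and CD27 lie below 0 in every line, whereas XBP1 runs from -1.78 in Daudi to 0.81 in SU-DHL4.

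Set against each other at the brightest probe set of each gene, the median effector change lay below the median regulator change in every line. The median regulator change ranged from -0.06 in SU-DHL6 to 0.81 in SU-DHL4, and the median effector change from -2.38 in Daudi to -1.01 in HT. The effector median minus the regulator median averaged -2.21 ± 0.62 (SD over 6 lines), from -3.18 in SU-DHL4 to -1.27 in HT. In each line 5 of the 7 effectors lay below the lowest regulator. No test was made, since the members were chosen with results of these data known. Under cyclic loess the difference was -1.87, and without the second treated SU-DHL6 array and SU-DHL4 -1.88.

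The members were spread over the range of untreated levels. Of the effector probe sets, 5 (JCHAIN, CD27, MZB1 and both of FKBP11) lay in the highest decile of all probe sets by untreated level, where 57% of probe sets were called lower and the median change was -0.66. The changes of these 5 ran from -1.55 to -2.99. No regulator probe set was in that decile. The effectors SDC1 and ELL2, at 6.89 and 5.67 on their brightest probe sets, lay in lower deciles. IRF4 204562_at was in a decile with a median change of 0.15 and 22.5% called higher, and XBP1 and TNFRSF17 in a decile with a median of -0.08. How far the level of a probe set enters the difference between regulators and effectors was not tested.

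**Figure D3:**
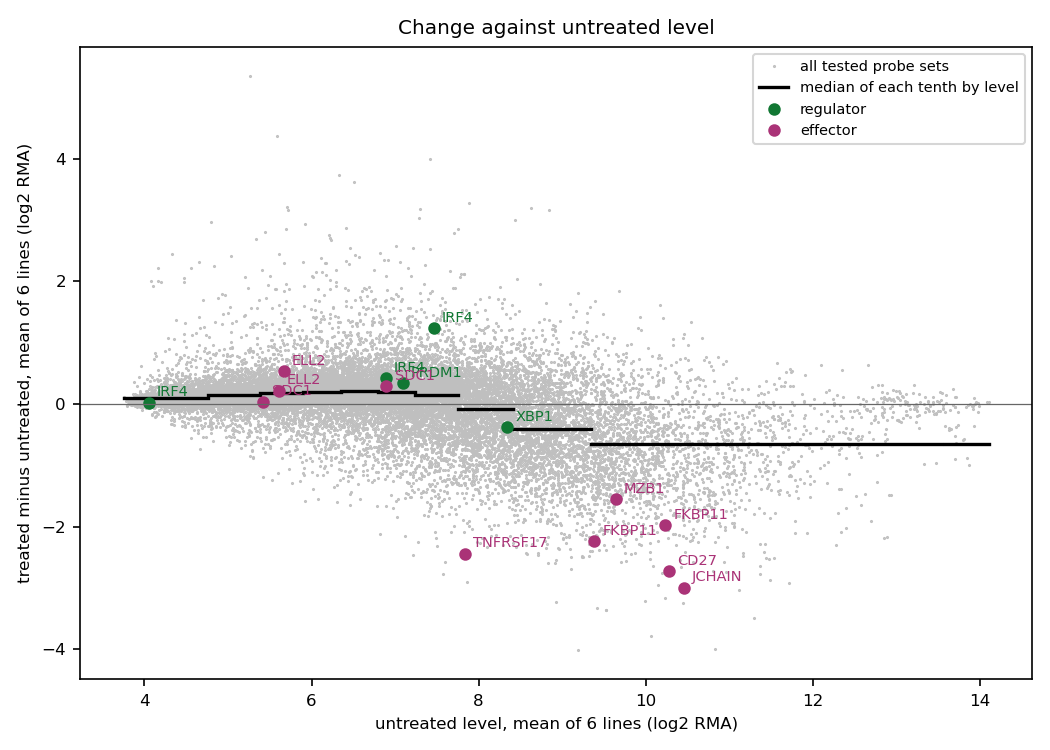
Mean change over the 6 lines (vertical axis, log2 RMA) against the mean untreated level (horizontal axis, log2 RMA) for all 22215 tested probe sets in grey, with the median of each decile by level as a black bar. The 5 effector probe sets in the highest decile lie at -1.55 to -2.99 against a decile median of -0.66, and IRF4 at 1.24 lies above its decile median of 0.15.

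In the single lines, tested on all 22 arrays with 1 contrast for each line, 47 of 90 comparisons of a member probe set were called, 14 higher and 33 lower. Daudi had 1 higher and 7 lower of 15, where 9.33% of all probe sets were called higher and 8.79% lower (18.1% in all). Namalwa had 2 and 7 (all probe sets: 9.04% and 11.7%, 20.7% in all) and Raji 2 and 5 (4.75% and 8.17%, 12.9% in all). SU-DHL4 had 7 higher and 6 lower, in a line where 34.3% of all probe sets were higher and 22.3% lower (56.6% in all). SU-DHL6 had 1 and 6 (14.1% and 14.2%, 28.3% in all) and HT 1 and 2 (1.73% and 2.17%, 3.9% in all). In HT the single arrays were assumed to vary like those of the other lines, so neither a call nor its absence is a test of that line. Its lower calls were JCHAIN (-2.88, adjusted p = 0.000306) and CD27 (-3.16, adjusted p = 0.00645), and ELL2 214446_at was higher (0.97, adjusted p = 0.0471). With HT left aside, 44 of 75 comparisons were called, 13 higher and 31 lower. JCHAIN, CD27, MZB1 and FKBP11 were called lower in each of the 5 lines with duplicates.

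Whether the change itself differed between the 6 lines was asked with a limma F test on the 22 arrays, added after the data had been seen. Its error was the spread between duplicates, which may be technical, and the single HT arrays added nothing to that estimate. The F test called 6 of the 15 member probe sets, against 17.9% of all probe sets. They were TNFRSF17 (adjusted p = 0.000716, with treated levels near the bottom of the scale), IRF4 204562_at (0.00118), XBP1 (0.00266), JCHAIN (0.00304) and both of ELL2 (0.00672 and 0.0412). CD27 (adjusted p = 0.881), MZB1 (0.258) and FKBP11 (0.461 and 0.258) were not called. Between the 3 Burkitt and 3 DLBCL lines, the change was called different for 0 of 15 member probe sets (all probe sets: 0.0045%). At an unadjusted limma p under 0.05 were 4 member probe sets, and 2635 of all 22215. The untreated level was called for 0 of 15 as well (all probe sets: 0.009%). At an unadjusted limma p under 0.05 were 2 of them, XBP1 and MZB1, and 1144 of all 22215. The MZB1 difference was 0.71 ± 0.23 (SE) higher in Burkitt lines (unadjusted p = 0.0231, limma adjusted p = 0.878).

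Genes around the switch were taken from lists chosen with earlier results of these data known, each gene at its brightest probe set. Over all 11963 genes read in this way 18.4% were called higher and 17.9% lower, with a median change of 0.12. Among factors that hold the B-cell state or that PRDM1 represses, 5 of 11 measured were lower (45.5%), 1 was higher (9.09%) and 5 were not called, with a median of -1.24. By untreated level 6 of the 11 lay in the highest decile, where 57% of probe sets were called lower. MYC, a driver of growth, fell by 3.25 ± 0.94 (limma adjusted p = 0.000694). PAX5, which maintains B-cell identity, changed by -2.28 ± 0.81 (adjusted p = 0.00138), although its other probe set gave 0.18 without a call. BCL6, the repressor of the germinal centre, changed by -1.47 ± 0.87, SPI1, which encodes the factor PU.1, by -1.34 ± 0.44 and ETS1 by -1.21 ± 0.46, all called. BACH2, a repressor of PRDM1, averaged -1.33 ± 1.73 without passing (adjusted p = 0.111). The 1 rise was in MITF, at 0.26 ± 0.09.

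Of 15 other measured genes that are high in plasma cells 5 rose (33.3%), 4 fell (26.7%) and 6 were not called, and the median of 0.14 was near that of all genes. POU2AF1, a coactivator of antibody genes, fell by 3.49 ± 0.64 (limma adjusted p = 0.000241), and PRDX4, a peroxidase of the ER, changed by -1.35 ± 1.24. CD38, a surface enzyme of plasma cells, changed by -1.20 (adjusted p = 0.031). CD9, a surface tetraspanin, averaged 1.30 ± 1.58 without passing (adjusted p = 0.092). The 5 that rose were CREB3L2 (1.02), ITM2C (0.64), CAV1 (0.60), SLAMF7 (0.48) and AQP3 (0.39).

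Of 20 measured genes of the unfolded protein response, which XBP1 serves, 4 rose (20%), 7 fell (35%) and 9 were not called, with a median of -0.10. The share that rose was near that of all genes, and 17 of the 20 lay in the 3 highest deciles by untreated level. SEL1L, of the ER degradation machinery, rose by 1.08 ± 0.34 (limma adjusted p = 0.00135), as did DDIT3, the stress factor CHOP, by 0.87 ± 0.30. ATF4, a factor of the PERK branch, changed by -1.03 ± 0.60, SDF2L1, an ER chaperone partner, by -0.96 ± 0.49 and PDIA6, a disulfide isomerase, by -0.95 ± 0.64, all called. HSPA5, the ER chaperone BiP, averaged -0.27 ± 0.87 without passing (adjusted p = 0.485).

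Among 40 genes of ER translocation, glycosylation and vesicle transport 17 fell (42.5%), 3 rose (7.5%) and 20 were not called, with a median of -0.45. In untreated cells 21 of the 40 lay at levels of the highest decile and 14 in the 2 deciles below it. Over all probe sets these 3 deciles had 57%, 43.7% and 27.5% called lower, with medians of -0.66, -0.40 and -0.08, so the list lay near probe sets of like level. SPCS2 and SPCS3, subunits of the signal peptidase, changed by -1.40 ± 0.29 (limma adjusted p = 0.000443) and -1.31 ± 0.42. SEC62, of the translocation channel, changed by -1.37 ± 0.48 and RPN1, of the oligosaccharyl transferase, by -1.24 ± 0.43, both called. The 3 that rose were DAD1 (0.47), KDELR3 (0.40) and COPA (0.39).

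**Figure D4:**
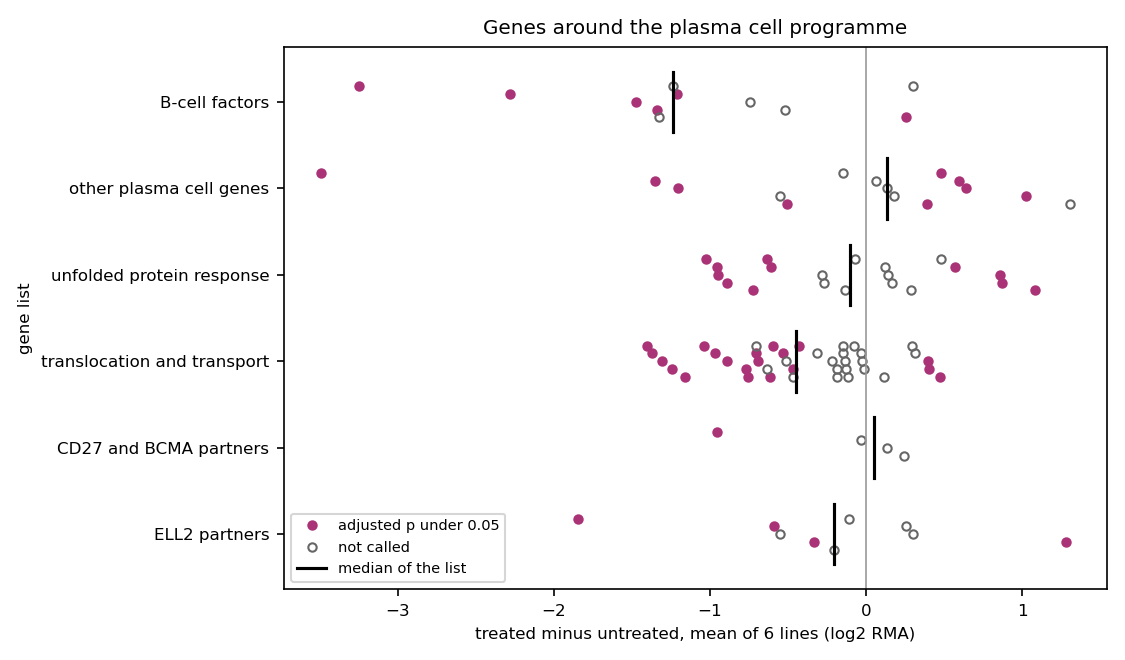
Mean change over the 6 lines (horizontal axis, log2 RMA) of each measured gene in 6 lists around the plasma cell programme (vertical axis), with filled circles for an adjusted p under 0.05, open circles for genes not called and a black bar for the median. The B-cell factors have a median of -1.24 and the translocation and transport genes -0.45, against 0.12 over all genes. Of the 40 translocation and transport genes 21 lie in the highest decile by untreated level, whose median is -0.66.

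Partners of single members were measured less fully. Of 4 measured ligands, sister receptors and adaptors of CD27 and TNFRSF17, SIVA1, which binds the tail of CD27, fell by 0.95 ± 0.54 (limma adjusted p = 0.00883) and the other 3 were not called. CD70, the ligand of CD27, averaged -0.03 ± 0.62 (adjusted p = 0.906), TNFSF13, the BCMA ligand APRIL, 0.24 ± 0.46 and TNFRSF13B, the receptor TACI, 0.14 ± 0.48. Of 9 measured elongation and processing partners of ELL2, 3 fell (33.3%), 1 rose (11.1%) and 5 were not called, against 17.9% and 18.4% of all genes. ELL3, a relative of ELL2, changed by -1.84 ± 0.50 (adjusted p = 0.000674), and by -2.64 on its other probe set. AFF1, a scaffold of the super elongation complex, rose by 1.28 ± 1.19 (adjusted p = 0.0431), while its other 2 probe sets gave 0.06 and 0.23 without a call. CSTF2, a cleavage factor that shifts antibody transcripts to the secreted form, fell by 0.59 ± 0.24, and EAF2 averaged -0.55 ± 1.26.

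The genes whose levels followed those of 2 members most closely over the 12 line and treatment means were named by rule. For IRF4 they were ASL (Pearson r = 0.937), CDKN1A (0.919), GCA (0.91) and BHLHE40 (0.904). For JCHAIN they were SLC38A1 (0.973), PSMB5 (0.973), ALOX5AP (0.966) and NUCKS1 (0.962). The 12 points share the treatment and the lines, so any gene that changes with treatment tends to correlate, and the values are a description only.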

How the data were processed

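The authors deposited log2 values of robust multi-array averaging (RMA; background correction, quantile normalization and a summary for each probe set), per the series design text and the submitters' processing notes, which also name R 2.10.1. A second file held the authors' deposited p-values, their adjusted p-values and log2 differences; its differences equalled treated minus untreated array means to within 3.55e-14. Its adjusted p-values were under 0.05 for 57% of probe sets. The genome build is not given in the sources used here; promoters came from RefSeq (GRCh38.p14). Arrays carry no read depth, and their number limits the precision.

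Of 22283 probe sets, 68 controls were left out. Dim probe sets were kept. Probe sets with 1 symbol (19065) were named, 1043 had several and 2107 none. Tests used limma 3.58.1 in R 4.3.3 (lmFit, eBayes, two-sided), as described beside each result. Of the main tests, all but the F test between lines were also run on simulated data. A minimum recovery was required there of the tests over lines and in single lines, not of the Burkitt against DLBCL tests. All probe sets were fitted because the member rule takes all of them. The members, lists, tests and alternatives were chosen with earlier results of these data known. Named besides the members were up to 4 genes of each list with the largest change, and 4 genes most like IRF4 and JCHAIN; MITF, ETS1, DDIT3, HSPA5, BACH2 and the risers listed in full were named after their values were seen. Same-numbered duplicates did not deviate together (correlations from -0.14 to 0.03), so replicate numbers were not used as pairs. Alternatives were other scalings, filters, units, lines and left-out arrays.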

Additional observations from a re-analysis of the deposited data

Results flagged for a closer look

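Of 45 sets of 6 line values (untreated level, treated level and change of 15 probe sets), 2 held a line far from the other 5 by Dixon's criterion, about as many as chance gives at 1 in 20. Both were ELL2 214445_at in SU-DHL4, whose treated level was 6.54 against 5.53 to 5.84 in the other lines and whose change was 0.99 against -0.14 to 0.22. The treated SU-DHL4 arrays had interquartile ranges of 2.03 and 1.96, among the 3 narrowest of the treated arrays, and 34.3% of all probe sets were called higher in that line; their part in the ELL2 value was not tested.

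By the F test between lines, TNFRSF17 (adjusted p = 0.000716) ran from -4.33 in SU-DHL6 to -0.55 in Raji, with all treated arrays near the bottom of the scale, and IRF4 204562_at (0.00118) from -0.28 in SU-DHL6 to 2.60 in Raji. XBP1 (0.00266) ran from -1.78 in Daudi to 0.81 in SU-DHL4 and JCHAIN (0.00304) from -4.41 in SU-DHL4 to -2.18 in Namalwa. ELL2 (0.00672 on 214445_at, 0.0412 on 214446_at) was highest in SU-DHL4, at 0.99 and 1.07. The F test takes its error from the spread between duplicates, which may be technical.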

How the results depend on the processing

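The 6 lower calls among member probe sets held under each alternative that kept all 6 lines and tested the probe set. The higher calls did not. The count of member calls was 6 to 11 of 15 where all 15 were tested. With 1 probe set per gene the count was 7 of 10. Without dim probe sets it was 7, with fewer than 15 tested. Without Namalwa or without SU-DHL4 it was 6, with 0 higher. The count was 8 to 10 without single replicates, and the calls in single lines were 43 to 48. Over all probe sets 7193 were called. The count was 4424 with 1 probe set per gene (11963 tested), 12659 on 22 arrays with line as an additive term, 4700 without SU-DHL6, 2312 in the Burkitt and 2225 in the DLBCL lines alone (3 lines each), and 5675 to 7783 without single replicates. With the replicate block, 11180 were called and 11 members, PRDM1 (adjusted p = 0.0138) and SDC1 201287_s_at (0.0467) among them; arrays, not lines, are its units. PRDM1 was also called without Daudi (0.41, adjusted p = 0.042), without the second untreated Daudi array (0.38, 0.0248) and without the first treated SU-DHL6 array (0.37, 0.0452), and IRF4 216986_s_at was not without the second untreated SU-DHL6 array (0.39, 0.0502). XBP1, whose lines went opposite ways, was 0.29 in the DLBCL lines alone. Values near 0 changed sign: ELL2 214445_at was -0.016 in the Burkitt lines alone, IRF4 216987_at -0.074 after centring and -0.036 after cyclic loess. SDC1 201286_at was -0.060 after centring, -0.10 after cyclic loess, -0.0021 without the second treated SU-DHL6 array and SU-DHL4 and from -0.0037 (without the first treated Namalwa array) to 0.079 without single replicates. The causes were not tested. The effector minus regulator difference ran from -2.40 to -1.87 and could not be computed with dim probe sets left out, which removes ELL2. The F test between lines called 5 member probe sets after centring and 5 after cyclic loess, against 6.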

Other observations

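Of 24 measured markers of other cell types 4 were called higher (16.7%), near the 18.4% of all genes read at their brightest probe set. Among 7 myeloid markers measured 1 rose, CSF1R, the receptor of macrophage colony-stimulating factor, by 1.17 (limma adjusted p = 0.00316). CD3D (0.41, adjusted p = 0.0086) and CD3E (0.40, 0.0192) rose among 8 T and NK cell markers, and KRT18 (0.64, 0.0269) among 4 epithelial ones. Summed levels went from 53.2 to 54.8 untreated to 54.7 to 59.0 treated for T and NK cells, from 38.1 to 41.8 to 39.4 to 42.5 for myeloid and from 20.4 to 21.6 to 20.6 to 22.5 for epithelial cells. LYZ and EPCAM lay near the bottom of the scale untreated, at 4.41 and 4.47, but not all such markers were dim. Above the median probe set untreated lay 3 of 8 T and NK cell, 1 of 7 myeloid, 0 of 4 epithelial and 3 of 5 stromal markers. DCN had 8.36, COL1A1 8.24, CD5 8.01 and CD3E 7.66. None of 5 stromal markers was called, and their sum was 31.8 to 34.9 untreated and 32.0 to 35.1 treated.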
